A study of Mus musculus with 8 samples.

Results

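The granule exocytosis machinery of mouse Paneth cells (PCs) was followed over 10 genes that were listed by name from the known secretory pathway: Vamp8, Stx3, Snap23, Stxbp2, Rab27a, Rab27b, Rab3d, Rab26, Syt7 and Kcnn4. All 10 were among the 55414 genes of the count table, and 9 of them were among the 10707 genes that passed the expression filter. Rab26 did not pass it. The RNA came from PCs sorted by fluorescence-activated cell sorting (FACS) from the small intestine, in 8 libraries that each came from 1 mouse. The Milli-Q water group (purified laboratory water) held 4 mice and the zinc group held 4 mice that drank 25 mM zinc sulfate (ZnSO4), in both cases for 7 days. By their labels, all 8 mice then received the inflammatory cytokine TNF and their PCs were taken 3 h later, so both groups are labelled with TNF. The TNF label of 1 library, zinc replicate 3, is in doubt from its values, given below. The labels give neither age nor genotype. The question was how abundant each gene of the machinery was, which paralog led each family, and whether the level differed between the zinc and the water group.

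PCs store antimicrobial peptides in large apical granules and release them into the crypt lumen by regulated exocytosis. A granule is carried and tethered by Rab GTPases, and its membrane is then fused with the apical membrane by a bundle of SNARE proteins, made of a vesicle SNARE and target SNAREs. Sec1/Munc18 (SM) proteins guide the assembly of that bundle, synaptotagmins couple it to calcium, and in PCs the calcium-activated potassium channel Kcnn4 has been tied to secretion.

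Promoter windows of 250 bases before the annotated start were read from RefSeq (assembly GRCm38.p6) and searched for CATATG, the E-box bound by MIST1. MIST1 is the product of Bhlha15, a transcription factor of secretory cells that is known to act on Rab3d and Rab26, which is why this motif was searched. The motif is its own reverse complement, so 1 search covers both strands. Windows of 7 of the 10 genes were searched, 8 windows in all. Rab27b was left out of the search and no window was read for Rab26 or Syt7, so the motif was not looked for in these genes. CATATG was in 1 of the 8 windows, against 3.46% of all 32851 windows of that length. The window that held it ends just before an internal Rab27a start (chr9:73063898-73064147, plus strand), with the first base of the motif at -26 from that start. The Rab3d window (chr9:21918184-21918433, minus strand) is shown beside it because Rab3d was the most abundant of the genes, and these letters are not in it. Both run 5′ to 3′ and capitals mark the motif.
Rab27a: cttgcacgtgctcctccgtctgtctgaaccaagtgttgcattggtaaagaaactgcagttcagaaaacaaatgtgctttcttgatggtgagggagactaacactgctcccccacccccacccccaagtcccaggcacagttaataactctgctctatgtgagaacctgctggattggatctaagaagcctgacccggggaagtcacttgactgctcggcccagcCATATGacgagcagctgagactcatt
Rab3d: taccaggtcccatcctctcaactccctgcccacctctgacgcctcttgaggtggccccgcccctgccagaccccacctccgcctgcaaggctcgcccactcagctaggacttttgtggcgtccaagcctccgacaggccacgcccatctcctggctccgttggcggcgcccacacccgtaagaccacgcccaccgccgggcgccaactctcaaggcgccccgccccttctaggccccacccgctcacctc

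Library totals ran from 10623658 to 15101627 counts, and levels are given as CPM, counts divided by the scaled size of each library. A count of 0 allows up to 3 counts, or 0.179 to 0.369 CPM by library, which covers counting error only. PC markers were abundant in every library (8 of 8 tested, summed level 390479 to 733570 CPM). Zinc replicate 3 stood apart. It was the highest or the lowest of the 8 libraries for 59.8% of the tested genes. Its 8 TNF and NF-kB targets, chosen after their values were known, summed to 75.5 CPM, against 1184 to 1419 CPM in the other 7 libraries, and all 8 were lowest there, which goes against its TNF label. Its 11 enterocyte markers summed to 217 CPM, against 21.9 to 72.6 CPM, and all 11 were highest there. Its 7 tuft cell markers summed to 17.3 CPM, against 1.97 to 7.60 CPM, and all 7 were highest there. Goblet cell markers (11502 to 17126 CPM) did not stand apart in it. The 10 enteroendocrine markers summed to 49.3 to 78.3 CPM with water and 35.5 to 47.5 CPM with zinc, so every zinc library was below every water library. Immune and stromal markers summed to 13.5 to 28.9 CPM, 13 of 17 had under 10 counts in all, and Mcpt1, Mcpt2, Cpa3, Col1a1 and Col3a1 were among those with none. Counts fell with gene length in water replicates 3 and 4 (Spearman rho across genes, which are not independent replicates, -0.284 and -0.293, against 0.00675 to 0.224 in the other 6 libraries). Values without zinc replicate 3, or without water replicates 3 and 4, are therefore given where leaving them out moved a log2 fold change by over 1.5 times or turned it. The part of these features in the results was not tested. In bulk samples fewer cells of a type and less RNA per cell cannot be told apart.

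None of the 9 tested genes passed an adjusted p of 0.05 in the zinc against water comparison, where 0 of all 10707 genes (0.0%) passed. With edgeR's quasi-likelihood test, an unadjusted p under 0.05 was reached by 2 of the 9 genes, Kcnn4 on the higher side and Stx3 on the lower side, against 10.2% of all genes. DESeq2 and limma-voom with sample weights also called 0 of the genes, with 3 and 5 of them at an unadjusted p under 0.05, against 6.87% and 12.4% of all genes in those fits. The zinc and water libraries did not overlap for 2 of the 9, Stx3 and Snap23, both lower with zinc, against 3.12% of all genes lower without overlap and 5.87% without overlap in either direction. Without zinc replicate 3, an unadjusted p under 0.05 was reached by 2 of the 9, Stx3 and Snap23, against 8.06% of all genes. By the sign of the log2 fold change 4 were on the higher and 5 on the lower side (50.8% of all genes were on the higher side), and their median was -0.0045 beside 0.0062 for all genes tested. Zinc replicate 3 was the highest library for 2 of the 9 (Rab27b and Rab3d) and the lowest for 3 (Stx3, Snap23 and Rab27a), against 29.8% and 30.0% of all genes.

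On the scale of mean level per kilobase of exon (CPM per kb), Rab3d was highest at 48.6, above 97.8% of the tested genes, and above the next gene in 8 of 8 libraries. Rab27a (16.6) and Vamp8 (16.0) followed, and their order held in only 5 of 8 libraries, so they did not differ beyond the spread. Vamp8 was above Stxbp2 (10.7) in 8 of 8 libraries. Stxbp2 and Syt7 (10.5) did not differ beyond the spread, since Stxbp2 was above in 2 of 8. Snap23 (7.93) was below Syt7 in 6 of 8. Rab27b (2.24) was below Snap23 in 7 of 8 libraries, the exception being zinc replicate 3, and was above Stx3 (2.07) in 3 of 8. The lowest levels were those of Kcnn4 (0.450) and Rab26 (0.220), which were above 16.1% and 6.26% of the tested genes. With length taken from the longest transcript the order was the same except that Rab27a and Vamp8 changed places. Syt7 and Snap23 were then level, both at 11.6. By counts with no length the order differed more: Rab3d stayed highest and Kcnn4 and Rab26 lowest, but Syt7 had rank 2, Snap23 rank 4 and Vamp8 rank 6.

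**Figure D1:**
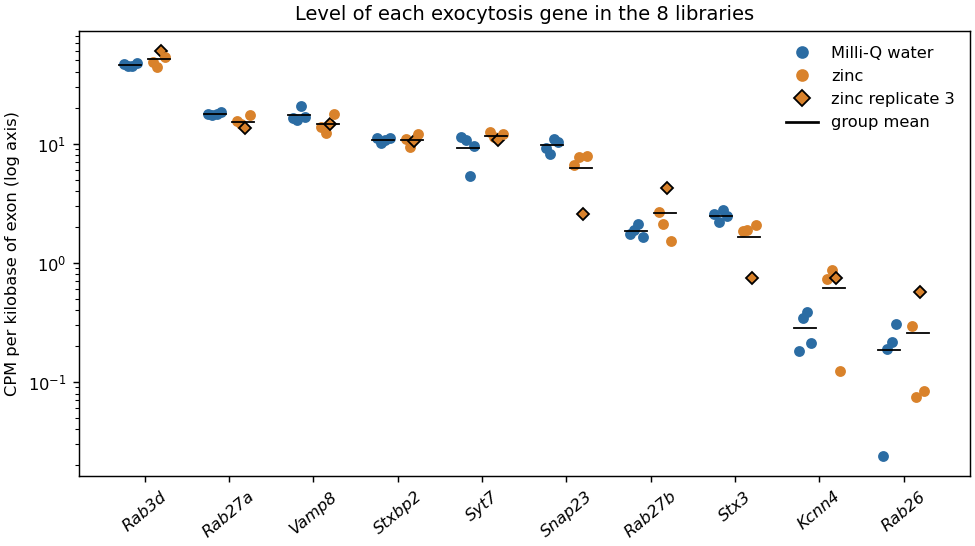
Level of each gene in CPM per kilobase of exon on a log axis, with blue points for the 4 Milli-Q water libraries, orange points for the 4 zinc libraries, a black-edged diamond for zinc replicate 3 and a line for each group mean. Rab3d lies above all other genes in every library, and Kcnn4 and Rab26 lie lowest by group mean.

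In 8 families described here, 7 of the listed genes had the highest mean level per kilobase, the exception being Stx3. Rab3d held 96.8% to 99.1% of the Rab3 family sum and Syt7 91.5% to 96.3% of the synaptotagmin sum, each leading in 8 of 8 libraries. Rab27a held 76.1% to 92.0% of the Rab27 sum, with the rest in Rab27b (mean 12.1%). Vamp8 held 59.0% to 67.6%, ahead of Vamp2 (19.5%) and Vamp3 (13.4%). Vamp7 was not analysed here. Among the syntaxins, Stx4a, a syntaxin known from basolateral membranes, led in 7 of 8 libraries with a mean of 48.7%, beside 35.0% for Stx3 and 14.4% for Stx11. That order depended on length: by counts with no length Stx3 led in 8 of 8 libraries with 69.3%. Snap23 held 29.6% to 66.1% and led in 7 of 8 libraries, while Snap29, a SNARE of autophagosome fusion, held 53.1% in zinc replicate 3. Rab26 held 15.9% to 82.8% of the sum with Rab37, but rested on 64 counts for each of the 2 genes over all libraries, and Rab37 had the higher mean share by counts with no length. Kcnn4 held 60.1% to 95.8%, the rest being Kcnn1 (77 counts in all). Snap25, Kcnn2, Kcnn3 and 7 of the 17 synaptotagmins had no count in any library.

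**Figure D2:**
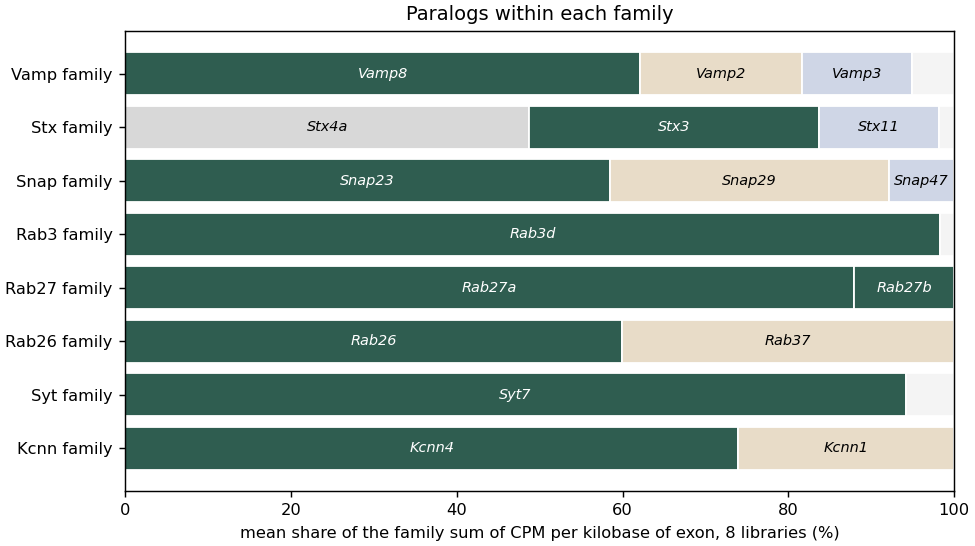
Mean share of each paralog in the sum of its family, in percent of CPM per kilobase of exon over 8 libraries, with the genes under study in dark green, other paralogs in pale colors and genes under 5% pooled in the palest bar. The named gene leads every family shown except the syntaxins, where Stx4a holds 48.7%.

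The share of the named paralog was compared between groups, with adjustment over 9 families of which 8 are described, by an exact permutation test (two-sided, 70 assignments), whose smallest p is 0.0286. The Snap23 share was 64.6% ± 1.04 with water and 52.3% ± 15.3 with zinc (SD, n = 4 each; exact permutation p = 0.0286, 0.0857 after Benjamini-Hochberg adjustment). The Rab3d share was 98.8% ± 0.252 and 98.0% ± 0.811, with the same exact p and the same adjusted value. The Kcnn4 share was 66.2% ± 4.90 and 81.8% ± 10.2, again with the same exact p and adjusted value. It rested on few counts. The groups came nearest at 71.9% in water replicate 3 and 74.2% in zinc replicates 3 and 4. Zinc replicate 4 held 12 counts of Kcnn4 and 3 of Kcnn1. All 3 were at the smallest p the design gives and none passed 0.05 after adjustment. Without zinc replicate 3 the Snap23 difference went from -12.3 to -4.73 percentage points and that of Rab3d from -0.80 to -0.42. For Stx3 the shares were 40.2% ± 3.70 and 29.8% ± 7.39 (exact permutation p = 0.0571, adjusted 0.129). For the other 4 families described the adjusted exact p ran from 0.257 to 0.857.

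Vamp8 (ENSMUSG00000050732, GRCm39 chromosome 6, positions 72359012 to 72368482), the vesicle SNARE of granules in many exocrine cells, was measured at 48.3, 46.7, 60.3 and 49.5 CPM in water replicates 1 to 4. In the zinc libraries it was measured at 40.9, 36.2, 42.6 and 51.8 CPM. The groups overlapped through zinc replicate 4, which was above 3 of the 4 water libraries. The group means were 51.2 ± 6.17 and 42.9 ± 6.52 CPM (SD over 4 libraries), and the log2 fold change was -0.26 (SE 0.151, edgeR adjusted p = 0.522), or -0.16 without water replicates 3 and 4.

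Stx3 (ENSMUSG00000041488, chromosome 19, positions 11752463 to 11796767), the target SNARE of apical membranes in polarized epithelia, had 34.7, 29.5, 37.2 and 33.2 CPM with water. With zinc it had 25.0, 25.5, 10.1 and 28.3 CPM. Every zinc library was below every water library, and zinc replicate 3 was far below the other 3. The log2 fold change was -0.60 (SE 0.268, unadjusted p = 0.0485, edgeR adjusted p = 0.485), and without zinc replicate 3 it was -0.35 (adjusted p = 0.563) with the remaining groups still apart. Stx3 overlaps Mrpl16 on the opposite strand and shares 8.69% of its 75-base words with other genes, and how far either enters its count was not tested.

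Snap23 (ENSMUSG00000027287, chromosome 2, positions 120397782 to 120433531), the broadly expressed relative of the neuronal target SNARE Snap25, had 66.4, 59.2, 80.2 and 75.3 CPM with water. With zinc it had 48.0, 55.7, 18.8 and 57.5 CPM. As for Stx3, the groups did not overlap and zinc replicate 3 was lowest. The means were 70.3 ± 9.35 and 45.0 ± 17.9 CPM, the log2 fold change was -0.64 (SE 0.295, unadjusted p = 0.0533, edgeR adjusted p = 0.485), and without zinc replicate 3 it was -0.38 (adjusted p = 0.563), again with no overlap. Every zinc library was also below every water library for the summed enteroendocrine markers, whose part in the Stx3 and Snap23 values was not tested. Snap23 overlaps Lrrc57 on the opposite strand and shares 24.5% of its 75-base words with other genes. The strand setting of the counting was not stated for these files.

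Stxbp2 (ENSMUSG00000004626, chromosome 8, positions 3680932 to 3694003), also known as Munc18-2, the SM protein that partners Stx3 in granule secretion, varied least of the genes. It had 53.5, 48.6, 51.4 and 54.0 CPM with water and 52.8, 45.3, 51.0 and 57.7 CPM with zinc. The 2 groups covered each other, with the highest and the lowest value both in the zinc group. The log2 fold change was -0.0045 (SE 0.126, edgeR adjusted p = 0.990), and 0.0062 without zinc replicate 3 and 0.010 without water replicates 3 and 4.

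**Figure D3:**
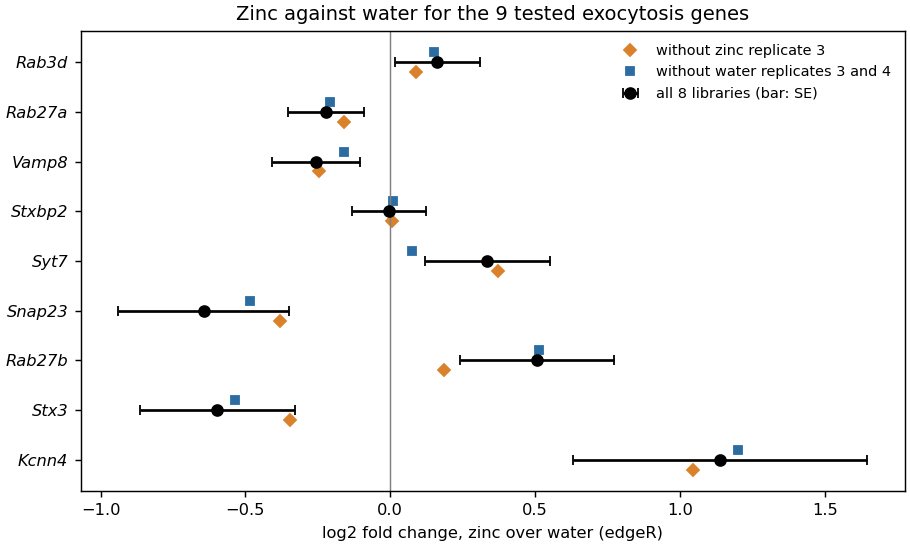
Log2 fold change of zinc over water for the 9 tested genes, with black points and SE bars for all 8 libraries, orange diamonds without zinc replicate 3 and blue squares without water replicates 3 and 4. Leaving out zinc replicate 3 moves Stx3, Snap23, Rab27b and Rab3d by over 1.5 times toward 0, leaving out water replicates 3 and 4 does so for Vamp8 and Syt7, and either puts Stxbp2 just above 0.

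Of the Rab GTPases, Rab27a (ENSMUSG00000032202, chromosome 9, positions 72952124 to 73004911), which docks granules at the plasma membrane, had 83.6, 82.8, 84.1 and 88.0 CPM with water. With zinc it had 73.7, 69.3, 63.7 and 83.3 CPM. The water libraries were tightly grouped and 3 of the 4 zinc libraries lay below them, while zinc replicate 4 was within their range. The log2 fold change was -0.22 (SE 0.131, edgeR adjusted p = 0.522), or -0.16 without zinc replicate 3, its lowest library. Its close relative Rab27b (ENSMUSG00000024511, chromosome 18, positions 70112202 to 70274903) had 20.9, 22.4, 25.2 and 19.7 CPM with water and 31.6, 25.0, 50.2 and 18.3 CPM with zinc. Zinc replicate 3 was highest of all 8 libraries and zinc replicate 4 was lowest, so the groups overlapped at both ends. The log2 fold change of Rab27b was 0.51 (SE 0.266, edgeR adjusted p = 0.502), and 0.19 without zinc replicate 3.

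Rab3d (ENSMUSG00000019066, chromosome 9, positions 21818510 to 21829622), a Rab on the surface of mature exocrine granules, had 278, 269.6, 266 and 282 CPM with water. With zinc it had 290.4, 262, 354 and 319 CPM. The zinc libraries reached both below and above the water libraries, with zinc replicate 3 highest. The means were 274 ± 7.25 and 306 ± 39.4 CPM, and the log2 fold change was 0.16 (SE 0.146, edgeR adjusted p = 0.643), or 0.09 without zinc replicate 3.

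Rab26 (ENSMUSG00000079657, chromosome 17, positions 24746215 to 24753184), a Rab of granule maturation in exocrine cells, was counted 1, 9, 5 and 11 times with water and 9, 3, 23 and 3 times with zinc. That is 64 counts in all, and 3 of the 8 libraries were at or under 3 counts. The mean level was 0.525 ± 0.338 with water and 0.729 ± 0.658 CPM with zinc, with overlapping groups. Without zinc replicate 3 the zinc mean was 0.433 ± 0.355 CPM, below the water mean, so the direction turned on that library. With all 8 libraries and no filter edgeR gave a log2 fold change of 0.48 and an adjusted p of 0.794. Rab26 overlaps Traf7 and Rab26os, and shares 14.1% of its 75-base words with other genes.

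Syt7 (ENSMUSG00000024743, chromosome 19, positions 10366033 to 10430544), a synaptotagmin of high calcium affinity that acts in slow regulated secretion, had 93.3, 86.9, 43.4 and 78.6 CPM with water. With zinc it had 101.9, 92.4, 88.6 and 98.8 CPM. Water replicate 3 was far below the other 7 libraries, and the groups overlapped. The log2 fold change was 0.33 (SE 0.216, edgeR adjusted p = 0.544). It was 0.14 without water replicate 3, the lowest library for 16.5% of all tested genes, and 0.07 without water replicates 3 and 4.

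Kcnn4 (ENSMUSG00000054342, chromosome 7, positions 24066915 to 24086115) had the log2 fold change of greatest size among the tested genes and few counts. It was counted 21, 46, 25 and 21 times with water and 61, 96, 84 and 12 times with zinc, which is 1.44, 2.74, 3.08 and 1.68 CPM against 5.72, 6.89, 5.89 and 0.968 CPM. Zinc replicates 1 to 3 were above all water libraries and zinc replicate 4 was below all of them. The log2 fold change was 1.14 (SE 0.508, unadjusted p = 0.0480, edgeR adjusted p = 0.485). Without zinc replicate 4 it was 1.47 (adjusted p = 0.112), and without zinc replicate 3 it was 1.05.

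Some markers of crypt stem cells, the neighbours of PCs in the crypt, moved beside Kcnn4. The 8 markers summed to 433 to 621 CPM with water and to 1103, 789, 1149 and 508 CPM in zinc replicates 1 to 4, and 7 of the 8 were highest in zinc replicate 3. Ascl2, a stem cell transcription factor, was counted 0, 1, 0 and 3 times with water and 33, 25, 60 and 0 times with zinc. Olfm4 had 182, 219, 305 and 142 CPM with water and 639, 413, 482 and 113 CPM with zinc. For Ascl2 and Olfm4, as for Kcnn4, zinc replicates 1 to 3 were above the water libraries and zinc replicate 4 was not. They were picked from the 8 markers, and Olfm4 alone made 639 of the 1103 CPM in zinc replicate 1. With Ascl2 and Olfm4 set aside, the rest of the sum did not follow Kcnn4. It was lower in zinc replicate 2 than in water replicates 1 and 2, and higher in zinc replicate 4 than in every water library. The part of crypt stem cells in the Kcnn4 values was not tested.

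**Figure D4:**
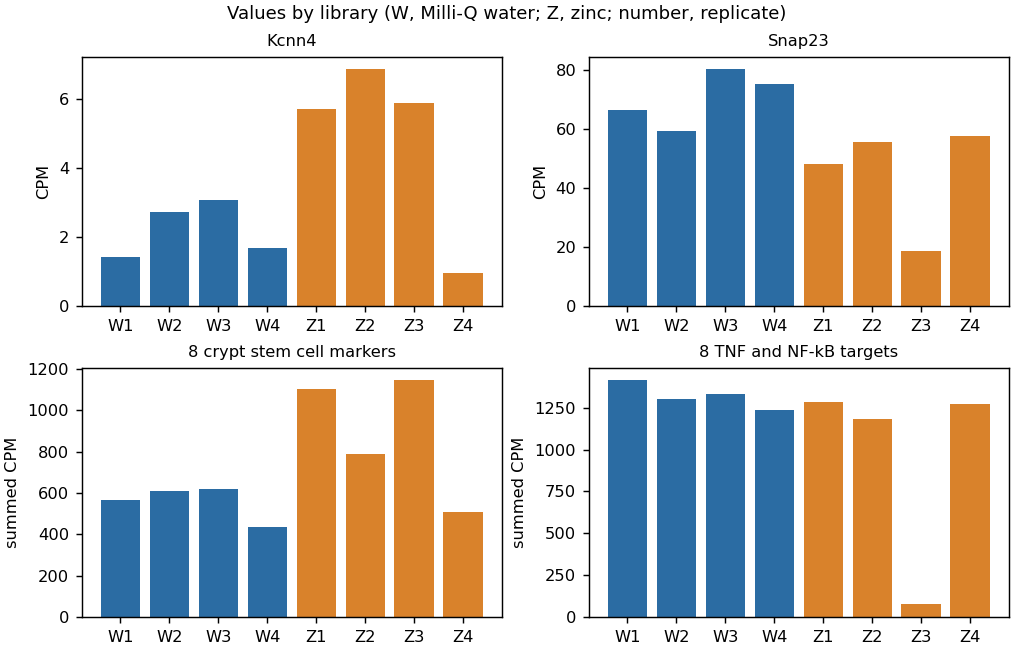
Kcnn4 and Snap23 in CPM and the summed CPM of 8 crypt stem cell markers and of 8 TNF and NF-kB targets, as bars for each library (W, Milli-Q water; Z, zinc; the number is the replicate). Kcnn4 and the summed stem cell markers are above the water libraries in Z1 to Z3. In Z4 Kcnn4 is below all water libraries, while the stem cell sum is within their range. Snap23 and the TNF targets are lowest in Z3.

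Of 118 other genes listed for the pathway, 117 were in the table, 20 had no count and 71 were tested. None passed after adjustment (edgeR), 36 were on the higher and 35 on the lower side, and the median log2 fold change was 0.0054. An unadjusted p under 0.05 was found for 4 on the higher and 4 on the lower side, against 6.42% and 3.78% of all genes. The groups did not overlap for 2 higher and 5 lower genes, against 2.76% and 3.12%. Of the other SNAREs tested, 12 of 17 were on the lower side (median -0.16). They were 11 of 17 (median -0.10) without zinc replicate 3 and 10 of 17 (median -0.02) without water replicates 3 and 4. Of the genes of stimulus and ion signals, 7 of 8 were on the higher side (median 0.21), but 4 of 8 without water replicates 3 and 4. The exception was Orai1, the calcium entry channel, named after its values were seen: 8.28 CPM in zinc replicate 3 against 27.1 to 47.8 CPM in the other libraries. SM proteins and syntaxin binders (2 of 4 higher), SNARE disassembly factors (1 of 3), other secretory Rabs (2 of 7), Rab effectors (8 of 13), the exocyst (4 of 8) and secretory carrier membrane proteins (2 of 4) had medians from -0.14 to 0.06. The median of the SM and syntaxin binder list was -0.14. It was 0.07 without zinc replicate 3, and -0.31 with 0 of 4 higher without water replicates 3 and 4. The smaller medians of the SNARE disassembly, Rab effector and carrier protein lists also changed sign when libraries were left out. Of 29 priming factors, calcium sensors and complexins, 12 had no count and 6 were tested, 4 of them on the higher side (median 0.38, or 0.10 without zinc replicate 3).

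The 3 genes of smallest p on the lower side were Rab11a, a Rab of recycling endosomes, Stx12, an endosomal syntaxin, and Stxbp3, an SM protein that binds Stx4. Rab11a had 36.4, 35.4, 52.3 and 43.3 CPM with water and 29.1, 34.8, 20.6 and 32.2 CPM with zinc (log2 fold change -0.52). Stx12 was at 51.6 ± 2.79 with water and 37.6 ± 9.17 CPM with zinc (SD over 4 libraries), and Stxbp3 was 18.7 ± 2.18 and 14.8 ± 1.21 CPM. In all 3 the groups did not overlap. On the higher side were Rab3gap2, a subunit of the GTPase-activating complex for Rab3, Myrip, a Rab27 effector, and Rab3a, the neuronal Rab3. Rab3gap2 was at 23.9 ± 0.765 with water and 30.6 ± 1.96 CPM with zinc, with no overlap and a log2 fold change of 0.35. Rab3a did not overlap either (1.71 ± 0.355 and 3.34 ± 1.80 CPM), while Myrip did (14.4 ± 3.70 and 23.7 ± 7.90 CPM). Without zinc replicate 3 the log2 fold change went from -0.46 to -0.30 for Stx12, from 0.71 to 0.47 for Myrip and from 0.97 to 0.55 for Rab3a, and without water replicates 3 and 4 that of Rab11a was -0.31. The edgeR adjusted p was 0.485 for all 6, and none passed.

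The listed genes of highest level per kilobase were Bhlha15 (39.9 CPM per kb), Rab25, an epithelial Rab of apical recycling (37.7), and Scamp2, a carrier membrane protein (34.4), all below Rab3d. Bhlha15 had 100.2, 103, 105 and 145 CPM with water and 116, 131, 270.2 and 151 CPM with zinc, with zinc replicate 3 highest and the groups overlapping. Its log2 fold change was 0.56 (edgeR adjusted p = 0.487), and 0.23 without zinc replicate 3. Rab25 went from -0.38 to -0.23 without zinc replicate 3 and also to -0.23 without water replicates 3 and 4, and Scamp2 went from -0.13 to 0.03 and to -0.35.

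**Figure D5:**
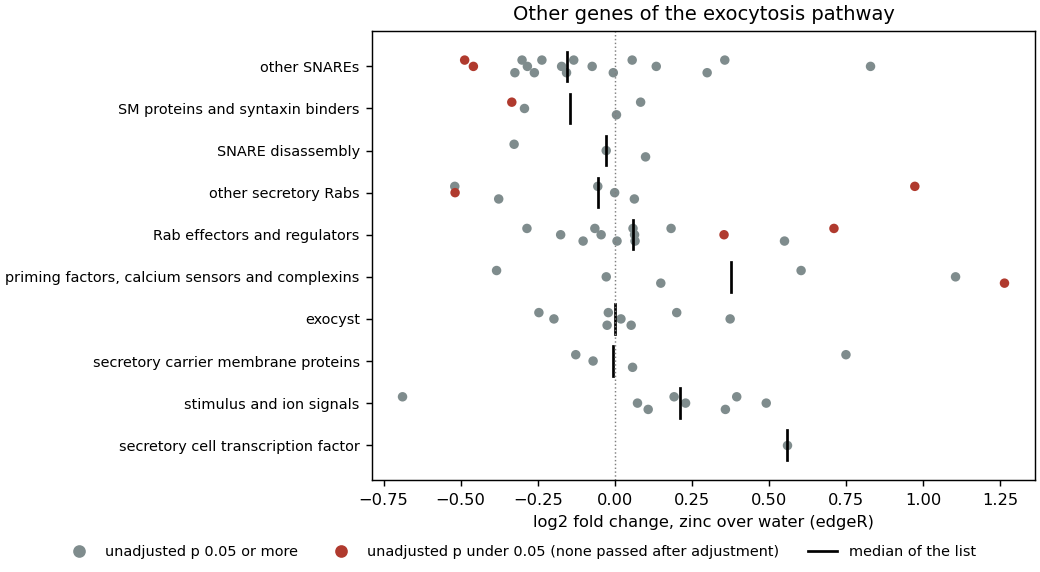
Log2 fold change of zinc over water for the 71 tested genes of the pathway outside the 10, by list, with red points at an unadjusted p under 0.05 and a black line at the median of each list. Points lie on both sides of 0 (36 higher, 35 lower), and none passed after adjustment.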

How the data were processed

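The authors deposited 1 table of raw counts per Ensembl gene. Per the labels, RNA of sorted PCs was made into libraries with the TruSeq stranded mRNA kit, and the submitters' processing notes name FastQC 0.12.0, STAR 2.7.10a, DESeq2 and the mm39 build. The counter, its strand setting and its rule for reads with several matches are not given in the sources used here. Symbols and exon lengths came from GENCODE M39 (GRCm39), which matched 54749 identifiers and missed 665. Samples were grouped by their labels. Zinc was compared with water by edgeR 4.0.16 (R 4.3.3) with a quasi-likelihood F-test and TMM scaling. The default filter kept 10707 genes and 99.89% of counts. P-values had Benjamini-Hochberg adjustment, with a threshold of 0.05. This test was also run on simulated counts in which no library stood apart as zinc replicate 3 did. How it behaves with such a library was not tested. CPM uses TMM-scaled library sizes, and SE is that of a log2 fold change. Family shares used CPM per kilobase of exon. Alternatives were other scaling and filters, DESeq2 1.42.0, limma 3.58.1 voom, a replicate block, other lengths, and libraries left out. The named genes were the 10 members, each leading paralog and any with at least 10% of its family, and, of the other pathway genes, the 3 of smallest p per direction and the 3 of highest level. Members and lists were chosen with earlier results of these data known. Between any 2 libraries chi-square per degree of freedom was at least 6.05, so none was a copy. The shares of 1 family are not reported here. P-values measure the spread between these 8 libraries.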

Additional observations from a re-analysis of the deposited data

Results flagged for a closer look

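The share of Snap23 in its family was 29.6% in zinc replicate 3, against 58.3% to 62.8% in the other 3 zinc libraries, a gap that took up most of the range of the group. It was 1 of 38 groups of 4 values searched for a library far from the rest, and chance gives about 1 in 20 groups, or 1.9 here. Snap23 itself had 18.8 CPM in that library.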

How the results depend on the processing

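No gene of the machinery passed the threshold under any alternative. DESeq2 called 4 of the 18747 genes it gave a fold change for, none of them a member, and the cause was not tested. Stxbp2, whose log2 fold change was -0.0045, changed sign to 0.042 with upper-quartile factors and 0.010 without water replicates 3 and 4, and ran from -0.067 to 0.051 with 1 library left out in turn. Under the same leaving out, the zinc minus water difference in family share ran from -10.6 to 10.2 percentage points for Rab26 and from -1.46 to 0.16 for Syt7. The causes were not tested. The other 8 tested members and the other shares kept their sign under the alternatives run, and Kcnn4 ran from 0.91 to 1.47. Rab26 was not among the tested members, and its zinc mean fell below its water mean without zinc replicate 3. Genes at an unadjusted p under 0.05 numbered 1960 without zinc replicate 4 and 312 without water replicates 3 and 4, against 1092. Rab26 had too few counts to be tested with the default filter. Depth limits Rab26, Kcnn4 and Kcnn1.

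No pairing by replicate number showed in the values. Deviations of same-numbered libraries correlated at -0.0275 to 0.0266, 0 of 4 over 0.1. Of the water libraries, 0 of 4 correlated best with their own number. Such correlations cannot tell whether the mice were paired, and the labels state no pairing. With the replicate block 0 genes passed and 802 had an unadjusted p under 0.05, with a log2 fold change of 0.96 for Kcnn4.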
